A study of Rattus norvegicus with 8 samples.

Results

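The genes of the ECM-receptor interaction pathway, the matrix proteins that surround cells and the membrane proteins that hold on to them, were followed in the hippocampus of vehicle-treated rats, of rats kindled with pentylenetetrazole (PTZ) and of kindled rats given the anticonvulsant Q808. Members were chosen by the KEGG annotation that the authors attached to each gene. 82 of the 22601 genes carried this pathway, and 80 of them are the members. They comprised 18 collagens, 11 laminin chains, 14 other matrix glycoproteins, 2 basement membrane proteoglycans, 13 integrin alpha subunits, 7 integrin beta subunits and 15 other receptors. The annotation uses no measured value, but the pathway was put forward with earlier results of these same comparisons known, so its calls are a description and not independent evidence.

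All rats were wild-type Wistar rats, and the labels give their weight and no age. The 3 rats of the Con. group received vehicle, the 3 rats of the PTZ group received PTZ and vehicle, and the 2 rats of the Q808 group received PTZ and Q808. PTZ blocks GABA-A receptors, and repeated injections below the convulsive dose kindle an animal, so that later injections give stronger seizures. Q808 was then given by daily gavage for weeks, and both kindled groups received a last PTZ injection on the day after, before the tissue was taken. A difference between PTZ and Con. therefore holds both the kindled state and the last injection. The meninges were removed and both hippocampi were dissected, and 1 library was made per rat from poly(A) RNA.

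In this pathway, collagen IV and laminin trimers are the 2 networks of the basement membrane, which perlecan and agrin link to each other and to the cell surface. In brain the basement membrane lies around vessels and under the pia, whereas the tissue between neurons and glia is poor in fibrillar collagen. Integrins are pairs of an alpha and a beta subunit that bind collagens, laminins, fibronectin, vitronectin and osteopontin, and dystroglycan, syndecans and CD44 are receptors of other kinds. KEGG also lists the synaptic vesicle proteins Sv2b and Sv2c here, although they are abundant in neurons.

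Levels are FPKM, fragments scaled by transcript length and by the mapped fragments of the library, so they can be compared between genes. Differences are log2 differences of FPKM + 0.1, which understates changes of weakly expressed genes. They were tested with limma on the 15593 genes with a mean of at least 0.1 FPKM over the 8 libraries. Calls needed both an unadjusted p below 0.05 and a fold change beyond 1.5 in either direction. 67 members passed the filter on low values. The other 13 were Col6a4, a second gene annotated as Col1a2, Thbs4, Comp, Chad, Itga2, Itgb7, Cd36, Cd36l1 and the platelet glycoproteins Gp5, Gp6, Gp1ba and Gp1bb, and 2 of the 13 were at 0 in all 8 libraries. With so few rats an exact permutation test over libraries cannot go below p = 0.1 in any of the 3 comparisons.

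Each library summed to between 362840 and 402556 FPKM, and FPKM do not give the number of reads behind a value. Con.-3, PTZ-3 and Q808-1 stood apart within their groups. The summed FPKM of 8 markers of striatum was 1656, 760 and 771 in these libraries and between 59.4 and 81.4 in the other 5, while the sum of 8 markers of hippocampal neurons was 57.0, 120 and 33.4 against 255 to 332. They are called the high striatum libraries here and the other 5 the low striatum libraries. Choroid plexus epithelium gave a summed FPKM over 8 markers, mostly transthyretin, of 2538, 2515 and 92.1 in the Con. libraries, 410, 278 and 494 in the PTZ libraries and 164 and 6453 in the Q808 libraries, with Otx2 at 0 in all of them. The striatum and hippocampal neuron lists therefore set 1 library apart in each group, and the choroid plexus list spanned more than the PTZ range within both Con. and Q808.

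**Figure D1:**
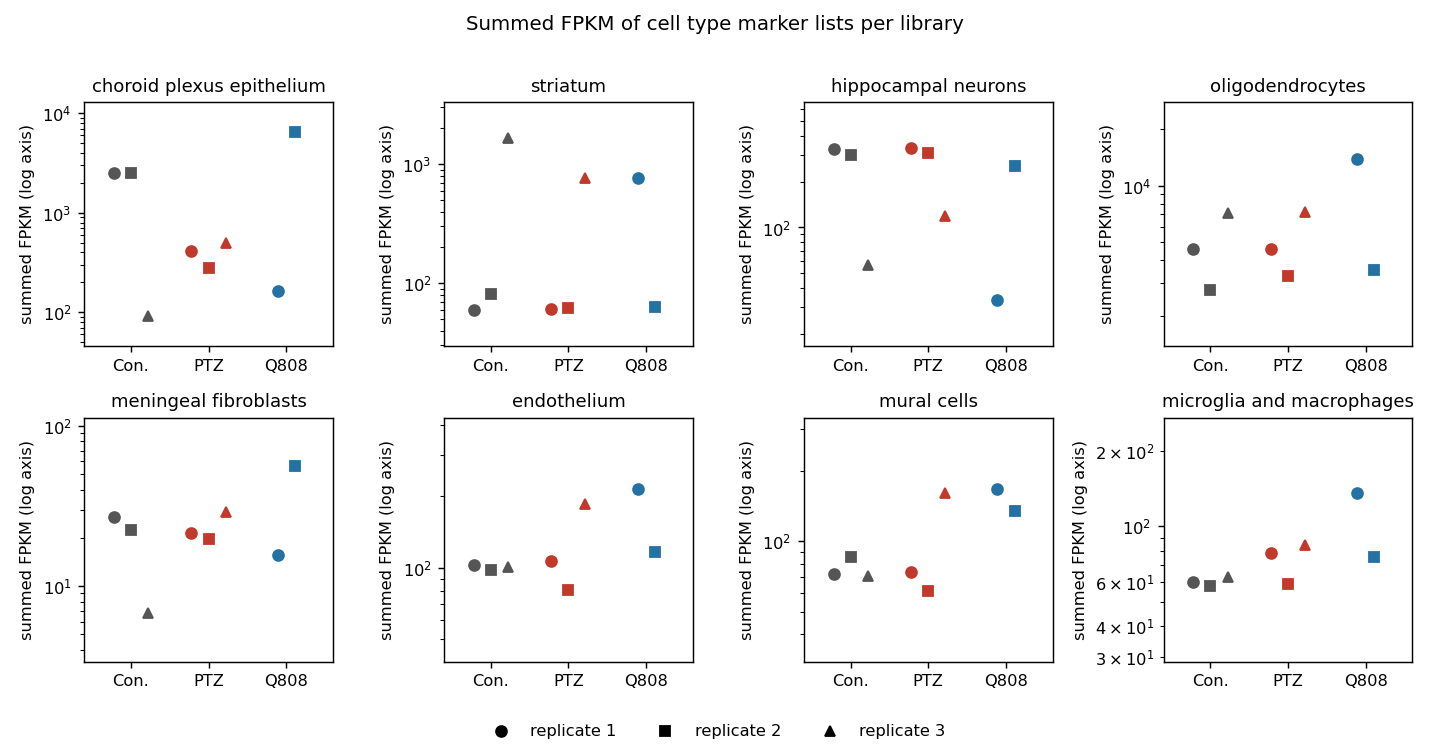
Summed FPKM (log axis) of 8 markers of each cell type or region for the 3 Con., 3 PTZ and 2 Q808 libraries, 1 point per library, with the replicate number shown by the symbol. Con.-3, PTZ-3 and Q808-1 are high for striatum and low for hippocampal neurons, and both Q808 libraries lie above the 3 Con. libraries for mural cells, at 134 and 167 against at most 85.3.

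In PTZ against Con., the question was which matrix and receptor genes differed in kindled rats. 5 of the 67 tested members were called and all 5 were higher in PTZ, among them fibronectin, osteopontin, a collagen IV chain and tenascin N (Tnn). Tnn passed the filter on low values through PTZ-2 alone, so the filter itself favoured a higher value in PTZ for it. With Tnn included, the calls are 7.46% of the tested members, beside 2.53% of all tested genes called, 1.69% called higher and 0.84% called lower. Because the pathway was put forward with these results known, nothing is read from that excess. No member had an adjusted p under 0.05 and the smallest was 0.999, with 5 members and 589 of all genes at an unadjusted p under 0.05. The median log2 difference was 0.03 over the members and -0.04 over all tested genes, and 37 members were higher and 30 lower.

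Fn1 (NCBI GeneID 25661) encodes fibronectin, a glycoprotein that joins integrins to collagen and other matrix. Its FPKM was 4.29, 4.91 and 4.22 in Con., 7.91, 8.02 and 8.43 in PTZ and 11.5 and 9.76 in Q808. The 3 groups did not overlap, with Con. lowest and Q808 highest, and Con.-3 and PTZ-3 did not stand out from the other rats of their groups. The log2 difference between PTZ and Con. was 0.85 with an SE of 0.16 (limma, unadjusted p = 0.00115, adjusted p = 0.999). It was 0.78 in the low striatum libraries and 0.98 between PTZ-3 and Con.-3. Between Q808 and PTZ the log2 difference was 0.38 with an SE of 0.20, and this was not called (limma, unadjusted p = 0.0968).

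Spp1 (25353) encodes osteopontin, a secreted phosphoprotein that binds alpha V integrins and CD44. Its FPKM was 0.621, 0.448 and 0.582 in Con. and 2.26, 1.20 and 1.92 in PTZ, and the groups did not overlap. The PTZ mean was 1.79 ± 0.541 (SD, n = 3) against 0.550 ± 0.0906 (SD, n = 3). On the log2 scale PTZ was higher by 1.51 with an SE of 0.33 (limma, unadjusted p = 0.00256, adjusted p = 0.999). The difference was 1.48 in the low striatum libraries and 1.57 between PTZ-3 and Con.-3. The 2 Q808 libraries differed from each other more than the PTZ libraries did, at 4.86 and 0.941 FPKM, and lay on both sides of the PTZ group. Spp1 was higher in Q808 than in Con. by a log2 difference of 1.81 with an SE of 0.68 (limma, unadjusted p = 0.0402), but by only 0.73 in the low striatum libraries, where it was not called.

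Col4a1 (290905) encodes a chain of the collagen IV trimer that is found in nearly every basement membrane. Its FPKM was 7.77, 6.02 and 5.75 in Con., 10.7, 11.1 and 8.09 in PTZ and 12.2 and 9.63 in Q808. The lowest PTZ library, PTZ-3, was only just above the highest Con. library, so the groups were close to touching. The log2 difference was 0.60 with an SE of 0.20 between PTZ and Con. (limma, unadjusted p = 0.0202) and 0.74 with an SE of 0.22 between Q808 and Con. (unadjusted p = 0.0162). Its partner in the trimer, Col4a2, ranged from 7.45 to 13.6 FPKM in Con. and from 8.80 to 15.2 in PTZ. Those 2 groups overlapped over most of their range, and the log2 difference of 0.28 with an SE of 0.29 was not called.

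Tnn (304913), which encodes the matrix glycoprotein tenascin N, was close to 0 in Con. at 0, 0.0101 and 0.0362 FPKM. In PTZ it had 0.133, 0.710 and 0.0979 FPKM, and in Q808 0.0138 and 0.0576. Its mean of 0.132 FPKM over the 8 libraries passed the filter through PTZ-2 alone, so its log2 difference of 1.55 with an SE of 0.60 rests largely on that rat. Its call was kept under 9 of 15 alternatives, and the settings that lost it included leaving out PTZ-2 and a pseudocount of 1.

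**Figure D2:**
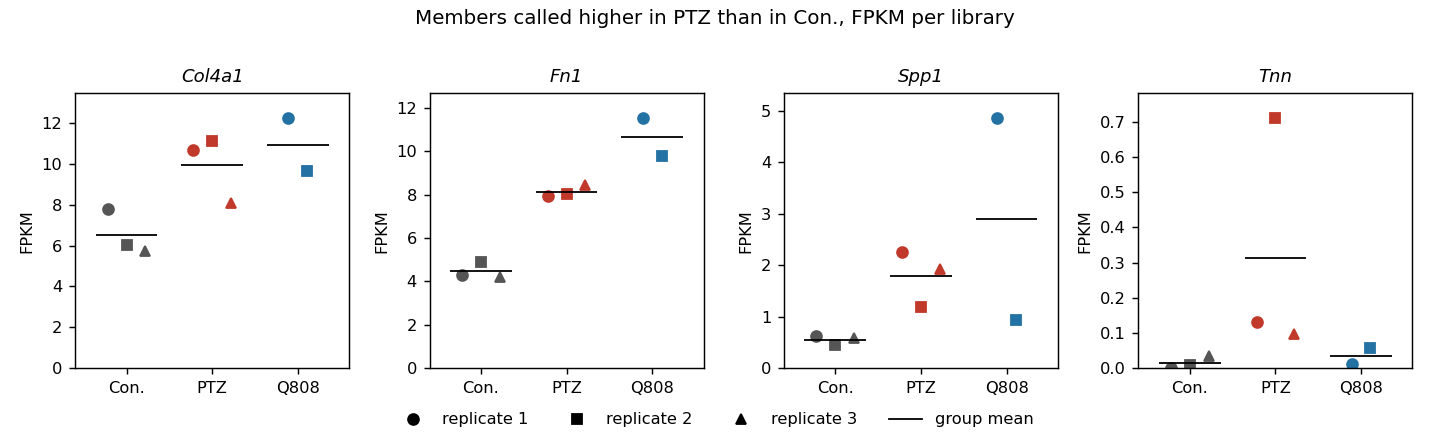
FPKM per library of Col4a1, Fn1, Spp1 and Tnn, which were called higher in PTZ than in Con., with 1 point per rat, symbols for replicate numbers and a line at each group mean. The Fn1 means are 4.47 in Con., 8.12 in PTZ and 10.6 in Q808, while the Tnn mean of PTZ is set by PTZ-2 at 0.710.

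The groups did not overlap for 10 members, Tnn included, 14.9% of those tested, beside 9.15% of all tested genes. Besides the 5 called members, Cd44, Col6a1 and Sdc4 were apart with PTZ higher, and the integrin subunits Itga3 and Itga8 with PTZ lower. Cd44, the hyaluronan receptor, which also binds osteopontin, had 2.83, 2.32 and 3.09 FPKM in Con. and 3.76, 5.03 and 3.27 in PTZ. Its log2 difference of 0.52 with an SE of 0.25 was not called (limma, unadjusted p = 0.0713). None of the 12 tested integrin alpha subunits, 6 beta subunits and 9 other receptors was called in PTZ against Con. on all libraries.

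The PTZ calls depended on which rats were compared. Fn1 and Spp1 were called under each of 16 alternatives, whereas Col4a1 was called under 11 of 16 and Tnn under 9 of 15. Without Con.-1, Con.-2 or PTZ-1 the count of called members was 3, beside 2.17%, 1.9% and 1.89% of all tested genes. It was 2 without PTZ-2, beside 1.6%, and 9 without PTZ-3, beside 7.28%. Pairing the libraries by number as a block gave 616 calls over all genes, 3.95% of those tested, and 6 members, the same 5 and Thbs1. In the low striatum libraries alone, Con.-1 and Con.-2 against PTZ-1 and PTZ-2, 14 members were called, beside 9.81% of all tested genes. 7 were higher, beside 4.1% of all genes, and 7 were lower, beside 5.71%. The higher ones were the same 5, Tnn included, with Cd44 and Lamc1. The lower ones were Col1a1, Col1a2, Col6a2, Col9a3, Thbs2, Itga2b and Itgb4. Among them Col1a1, a chain of fibrillar collagen I, had 2.23 and 2.41 FPKM in Con.-1 and Con.-2 and 1.52 and 1.12 in PTZ-1 and PTZ-2, a log2 difference of -0.78 with an SE of 0.25. The same gene was at 0.766 in Con.-3 and 5.86 in PTZ-3. In the same 4 libraries the choroid plexus list stood at 2538 and 2515 against 410 and 278, and its part in these lower values was not tested. In a tissue sample, fewer cells of a type and less RNA per cell cannot be told apart.

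The 2 promoters below belong to the members called higher in both PTZ and Q808 than in Con., and none is held in the RefSeq table used here for Fn1. They are the 250 bases before the annotated start in RefSeq's GRCr8 build, 5′ to 3′ along the gene. The Spp1 promoter lies at chr14:5619805-5620054 on the minus strand and the Col4a1 promoter at chr16:84885347-84885596 on the plus strand. Capitals mark exact matches, on either strand, of 5 motifs that were chosen after the values were seen: the CRE (TGACGTCA), the AP-1 site (TGANTCA), the CCAAT box (CCAAT), the TATA box (TATAAA) and the GC box (GGGCGG).
Spp1: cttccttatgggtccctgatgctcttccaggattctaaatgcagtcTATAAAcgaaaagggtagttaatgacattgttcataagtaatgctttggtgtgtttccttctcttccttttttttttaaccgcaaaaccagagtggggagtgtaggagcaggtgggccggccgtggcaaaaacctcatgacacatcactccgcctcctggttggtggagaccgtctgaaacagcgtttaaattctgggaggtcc
Col4a1: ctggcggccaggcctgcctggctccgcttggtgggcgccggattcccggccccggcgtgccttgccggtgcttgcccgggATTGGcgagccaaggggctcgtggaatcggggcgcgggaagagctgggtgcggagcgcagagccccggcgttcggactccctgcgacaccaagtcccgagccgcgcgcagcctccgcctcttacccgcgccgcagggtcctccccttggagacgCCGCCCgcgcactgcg
The Spp1 stretch holds a TATA box match 204 to 199 bases before the start and no match of the other motifs. The Col4a1 stretch holds a CCAAT match 170 to 166 and a GC box match 16 to 11 bases before the start, both on the opposite strand. A promoter was found for 66 members, with 67 promoters since Col6a5 has a pair of them. A GC box was present in 47.8% of the members' promoters and 30.5% of all 33469 promoters, a CCAAT box in 28.4% and 34%, a TATA box in 11.9% and 12.9%, an AP-1 site in 4.48% and 6.34% and a CRE in 1.49% and 1.59%. Matches of different motifs overlapped each other in 145 of all promoters. A match of letters is a description and not a shown binding site.

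In Q808 against PTZ, which asked what differed when kindled rats had received Q808, 6 of the 67 tested members were called and all 6 were higher in Q808. They were the collagen chains Col6a2 and Col9a3, the laminin chains Lamb2 and Lamc3, vitronectin (Vtn) and the integrin subunit Itga8. That is 8.96% of the tested members, beside 1.92% of all tested genes called, 1.36% called higher and 0.564% called lower, and again nothing is read from the excess. 55 members were higher and 12 lower, with a median log2 difference of 0.41 over the members and 0.10 over all tested genes. No member had an adjusted p under 0.05 and the smallest was 0.952, with 7 members and 341 of all genes at an unadjusted p under 0.05. None of the 5 members called in PTZ against Con. was called in Q808 against PTZ. These comparisons share the PTZ libraries.

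Vtn (29169) encodes vitronectin, an adhesive glycoprotein that binds alpha V integrins and that pericytes make in brain. It had the highest mean FPKM of the matrix glycoproteins, with 9.63, 12 and 9.05 in Con., 8.99, 8.08 and 16.4 in PTZ and 18.8 and 24.2 in Q808. Both Q808 libraries were above all 6 others, and PTZ-3 stood apart from the other PTZ rats. The log2 difference between Q808 and PTZ was 1.00 with an SE of 0.34 (limma, unadjusted p = 0.0244). It was 1.49 in the low striatum libraries, where Q808 is 1 rat, and 0.20 between Q808-1 and PTZ-3. Against Con. the difference was 1.06 with an SE of 0.20 (limma, unadjusted p = 0.00239), with 1.16 and 1.05 in the low and high striatum libraries.

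Col9a3 (362285) encodes a chain of collagen IX and had the highest mean FPKM of the collagens. It had 13.6, 10.5 and 10.9 FPKM in Con., 8.25, 6.64 and 13.5 in PTZ and 22.5 and 19.9 in Q808. The Q808 libraries were apart from all others, while Con. and PTZ overlapped. The log2 difference was 1.22 with an SE of 0.32 against PTZ (limma, unadjusted p = 0.0082) and 0.86 with an SE of 0.18 against Con. (unadjusted p = 0.00341). Col6a1 (294337) and Col6a2 (361821) encode partner chains of collagen VI, a beaded filament beside basement membranes. Col6a1 had 5.98, 6.25 and 5.89 FPKM in Con., 6.35, 7.27 and 7.78 in PTZ and 10.7 and 10.2 in Q808, so that the 3 groups did not overlap. Its log2 difference against Con. was 0.78 with an SE of 0.15 (limma, unadjusted p = 0.00294), and its 0.55 against PTZ was under the 1.5-fold limit. Col6a2 was more variable, with 3.39, 3.46 and 1.57 FPKM in Con., 2.06, 2.44 and 3.51 in PTZ and 3.79 and 6.92 in Q808. It was called against PTZ at a log2 difference of 0.95 with an SE of 0.38, but that difference was only 0.11 between Q808-1 and PTZ-3.

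Lamb2 (25473) and Lamc3 (311862) encode laminin chains, and laminin beta 2 is prominent in vessel and synaptic basement membranes. Lamb2 had the highest mean FPKM of the laminins, with 11.2, 10.7 and 11.2 in Con., 10.7, 8.85 and 14.1 in PTZ and 17.3 and 18.3 in Q808. Lamc3 had 0.747, 0.778 and 0.858 FPKM in Con., 0.537, 0.542 and 0.924 in PTZ and 1.53 and 1.54 in Q808. For both chains the Q808 libraries lay close together and above all 6 others. Lamb2 was higher in Q808 by log2 differences of 0.69 with an SE of 0.24 against PTZ and 0.69 with an SE of 0.14 against Con., and Lamc3 by 1.13 with an SE of 0.39 and 0.87 with an SE of 0.26. Limma's unadjusted p for Lamb2 was 0.0279 and 0.00298. Between Q808-1 and PTZ-3 the log2 difference was 0.29 for Lamb2 and 0.67 for Lamc3, against 0.91 and 1.36 in the low striatum libraries.

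Among the receptors, Itga8 (364786) encodes the integrin subunit that pairs with beta 1, and Itga5 (315346) the alpha subunit of the classical fibronectin receptor. Itga8 had 1.82, 1.63 and 1.73 FPKM in Con., 0.959, 1.36 and 1.53 in PTZ and 2.39 and 2.64 in Q808. PTZ lay below Con. and Q808 above it without overlap, but only Q808 against PTZ was called, at a log2 difference of 0.94 with an SE of 0.34 (limma, unadjusted p = 0.0324). Itga5 had 0.416, 0.377 and 0.500 FPKM in Con., 0.591, 0.489 and 0.861 in PTZ and 1.12 and 1.23 in Q808. Q808 was above all other libraries, and the log2 difference against Con. was 1.27 with an SE of 0.30 (limma, unadjusted p = 0.00662).

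**Figure D3:**
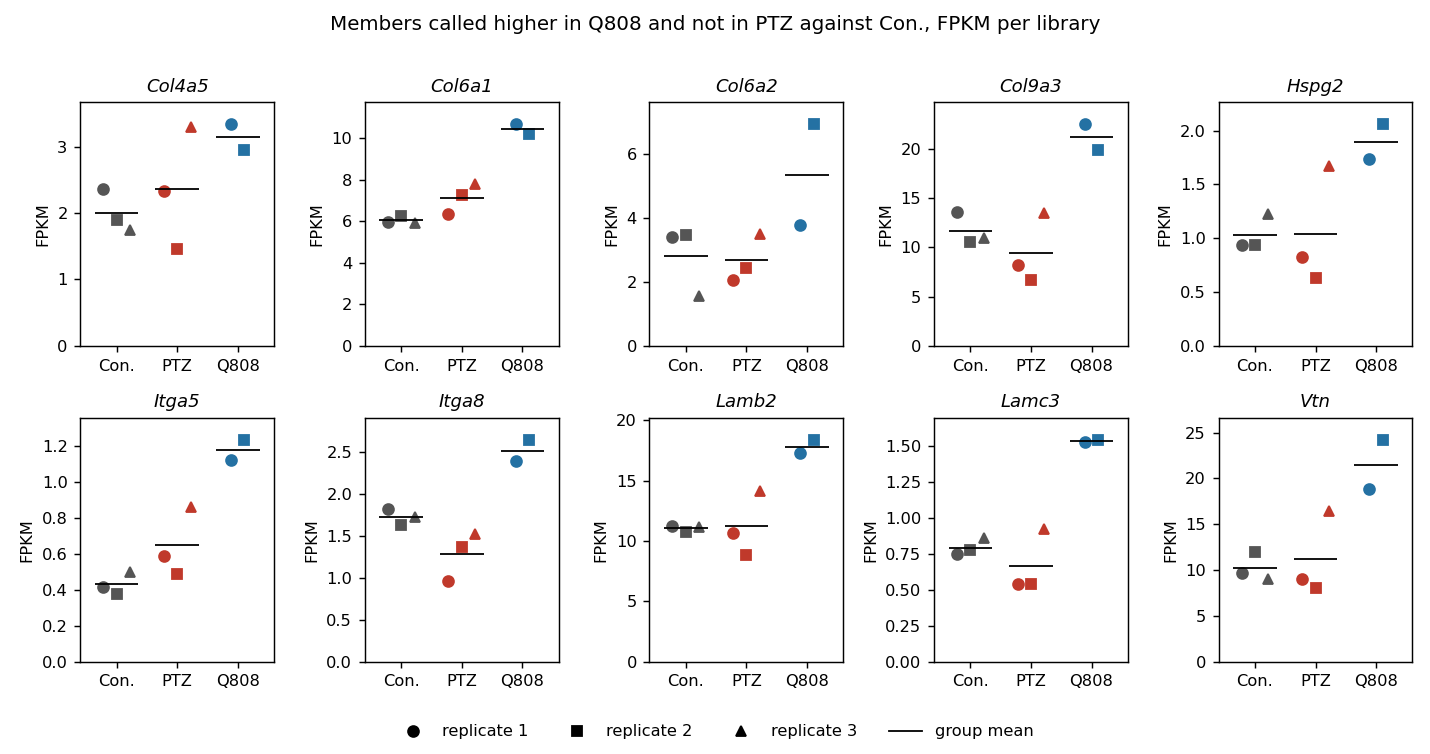
FPKM per library of the 10 members called higher in Q808 than in PTZ or Con. and not called in PTZ against Con., with 1 point per rat, symbols for replicate numbers and a line at each group mean. PTZ-3 is the highest PTZ library in every panel, and both Q808 libraries lie above all others for 9 of the 10 genes, with Col4a5 the exception.

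In all 6 of these calls the highest PTZ library was PTZ-3, which also had the highest vessel markers of its group. The summed FPKM of 8 endothelial markers was 107, 80.3 and 185 in PTZ, 214 and 117 in Q808 and 98.2 to 102 in Con. That of 8 mural cell markers was 74.0, 61.2 and 160 in PTZ, 167 and 134 in Q808 and 71.2 to 85.3 in Con. Meningeal fibroblast markers, 8 genes again, summed to 21.5, 19.6 and 28.9 in PTZ, 15.6 and 55.9 in Q808 and 6.74 to 27.1 in Con. All 8 endothelial and 7 of the 8 mural markers were higher in Q808 than in PTZ, and no gene of either list was called. The 7 tested meningeal markers were all higher, with a median log2 difference of 0.92 and Slc6a13 called. All 7 tested choroid plexus markers were higher with a median of 1.55, and 7 of the 8 markers of microglia and macrophages with a median of 0.74, of which the macrophage genes Cd163 and Mrc1 were called. All 8 striatum and all 8 oligodendrocyte markers were higher too, with medians of 0.67 and 0.42. So were 7 of the 8 oligodendrocyte precursor markers, with a median of 0.51, and 6 of the 8 astrocyte markers, with 0.15. Of the 8 hippocampal neuron markers 3 were higher and 5 lower. No striatal, neuronal, astrocyte or oligodendrocyte-lineage marker was called. The striatum median was -0.03 in the low striatum libraries and 0.04 between Q808-1 and PTZ-3. Between Q808-1 and PTZ-3 the medians of the choroid plexus and meningeal lists were -1.10 and -0.98. In the low striatum libraries, where Q808 is only Q808-2, they were 4.19 and 2.18. No endothelial or mural marker was at 0 in any library. The part of all these lists in the members' differences was not tested. Without PTZ-1 or without PTZ-2 only Col9a3 stayed called, beside 0.847% and 0.956% of all tested genes, and without PTZ-3 the count was 14, beside 10.1% of all tested genes. With quantile normalization 4 members were called, 5.97% of those tested, beside 1.74% of all tested genes. The share of higher genes among all calls was then 48.5% (132 of 272) in place of 70.7% (212 of 300).

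In Q808 against Con., 11 members were called and all 11 were higher in Q808, which is 16.4% of those tested, beside 3.46% of all tested genes called, 3.07% called higher and 0.391% called lower. 4 of them, Col9a3, Lamb2, Lamc3 and Vtn, were also called against PTZ, and 3, Col4a1, Fn1 and Spp1, were also called in PTZ against Con. The other 4 were Col4a5, Col6a1, Hspg2 and Itga5. 54 members were higher and 13 lower, with a median log2 difference of 0.55 over the members and 0.04 over all tested genes. The smallest adjusted p of a member was 0.901, with 12 members and 667 of all genes at an unadjusted p under 0.05 and 1 of all genes at an adjusted p under 0.05. Without Con.-1 the count was 7, beside 2.4% of all tested genes, and without Con.-2 it was 6, beside 1.79%. With quantile normalization 7 members were called, 10.4% of those tested, beside 2.83% of all tested genes. Of all calls, 64.4% (284 of 441) were then higher in place of 88.7% (479 of 540).

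Fn1 had the smallest p of the members here, with a log2 difference of 1.23 and an SE of 0.18 (limma, unadjusted p = 0.000735), and 1.07 and 1.43 in the low and high striatum libraries. Hspg2 (313641) encodes perlecan, the heparan sulfate proteoglycan of basement membranes. It had 0.939, 0.933 and 1.23 FPKM in Con., 0.823, 0.627 and 1.67 in PTZ and 1.74 and 2.06 in Q808. Both Q808 values were above all others, with PTZ-3 just below them, and the log2 difference against Con. was 0.82 with an SE of 0.28 (limma, unadjusted p = 0.0273). Col4a5 (363457), a collagen IV chain, had 2.35, 1.90 and 1.74 FPKM in Con., 2.33, 1.46 and 3.30 in PTZ and 3.33 and 2.95 in Q808. Its log2 difference of 0.64 with an SE of 0.25 was called under 4 of 15 alternatives. The mural markers Acta2, Myh11 and Tagln and the endothelial markers Cldn5, Esam and Tek were called higher in the same comparison. So were Foxd1 of the meningeal list, Cspg4 and Pdgfra of 8 markers of oligodendrocyte precursors, Pf4 of the platelet list, and Aif1 and Cd163 among 8 markers of microglia and macrophages, whose sum was 57.5 to 62.7 FPKM in Con. and 135 and 75.1 in Q808. All 8 astrocyte and all 8 oligodendrocyte markers were higher too, with median log2 differences of 0.37 and 0.48 and none called. Whether the members' differences follow these markers was not tested.

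The groups did not overlap for 20 members in Q808 against PTZ, 29.9% of those tested beside 15.6% of all tested genes, and for 25 in Q808 against Con., 37.3% beside 20%. For 15 members both Q808 libraries were above every Con. and PTZ library, which is 22.4% of those tested beside 4.28% of all tested genes. They were Col4a6, Col6a1, Col6a2, Col6a6, Col9a3, Lama5, Lamb2, Lamc3, Fn1, Vtn, Hspg2, Itga5, Itga8, Itgb6 and Sdc4. Sdc4, the syndecan of focal adhesions, had 25.0, 24.6 and 22.1 FPKM in Con., 26.2, 26.0 and 30.2 in PTZ and 33.6 and 31.8 in Q808, a narrow and ordered spread. Its log2 difference of 0.45 with an SE of 0.14 against Con. was under the 1.5-fold limit (limma, unadjusted p = 0.0176).

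The 2 promoters below are of members called higher in Q808 against both other groups. The RefSeq table used here has no entry for Lamb2 and Col9a3 nor for Col6a2. Vtn lies at chr10:63892532-63892781 and Lamc3 at chr3:35562739-35562988, both on the plus strand of GRCr8, and capitals mark the same motifs.
Vtn: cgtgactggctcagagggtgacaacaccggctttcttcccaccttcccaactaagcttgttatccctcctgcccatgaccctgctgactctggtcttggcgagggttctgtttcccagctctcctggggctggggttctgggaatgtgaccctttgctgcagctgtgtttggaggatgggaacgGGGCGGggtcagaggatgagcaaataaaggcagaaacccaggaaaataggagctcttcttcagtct
Lamc3: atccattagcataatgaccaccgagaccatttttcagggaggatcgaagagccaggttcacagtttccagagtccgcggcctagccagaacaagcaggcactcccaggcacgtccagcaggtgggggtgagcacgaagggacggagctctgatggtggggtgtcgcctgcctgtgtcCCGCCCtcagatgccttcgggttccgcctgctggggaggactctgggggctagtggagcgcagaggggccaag
The Vtn stretch holds a GC box match 66 to 61 bases before the start and the Lamc3 stretch one 73 to 68 bases before it, on the opposite strand.

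The roles are described by counts and medians, beside medians over all tested genes of -0.04 for PTZ against Con., 0.10 for Q808 against PTZ and 0.04 for Q808 against Con. In Q808 against PTZ 15 of 16 tested collagens, 8 of 11 laminins, 8 of 11 glycoproteins, 11 of 12 integrin alpha subunits and 6 of 6 integrin beta subunits were higher, with median log2 differences of 0.51, 0.49, 0.31, 0.49 and 0.41. The 9 other receptors were split, 5 higher and 4 lower, with a median of 0.06. Between Q808-1 and PTZ-3 the median was 0.36 for collagens and 0.25 for laminins, but -0.26 for glycoproteins. It was 0.36 and 0.42 for integrin alpha and beta subunits, and -0.15 for other receptors. Over all members it was then 0.18, in place of 0.41 on all libraries. In the low striatum libraries, where Q808 is 1 rat, it was 0.36 over all members and 0.28 for glycoproteins. In Q808 against Con. 14 of 16 collagens, 9 of 11 laminins and 10 of 11 glycoproteins were higher, with medians of 0.69, 0.69 and 0.55, and 4 of 9 other receptors, with a median of -0.01. In PTZ against Con. the medians were 0.19 for collagens, 0.00 for laminins, 0.44 for glycoproteins, 0.05 for integrin alpha subunits and -0.15 for integrin beta subunits. These counts include many members that were not called.

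**Figure D4:**
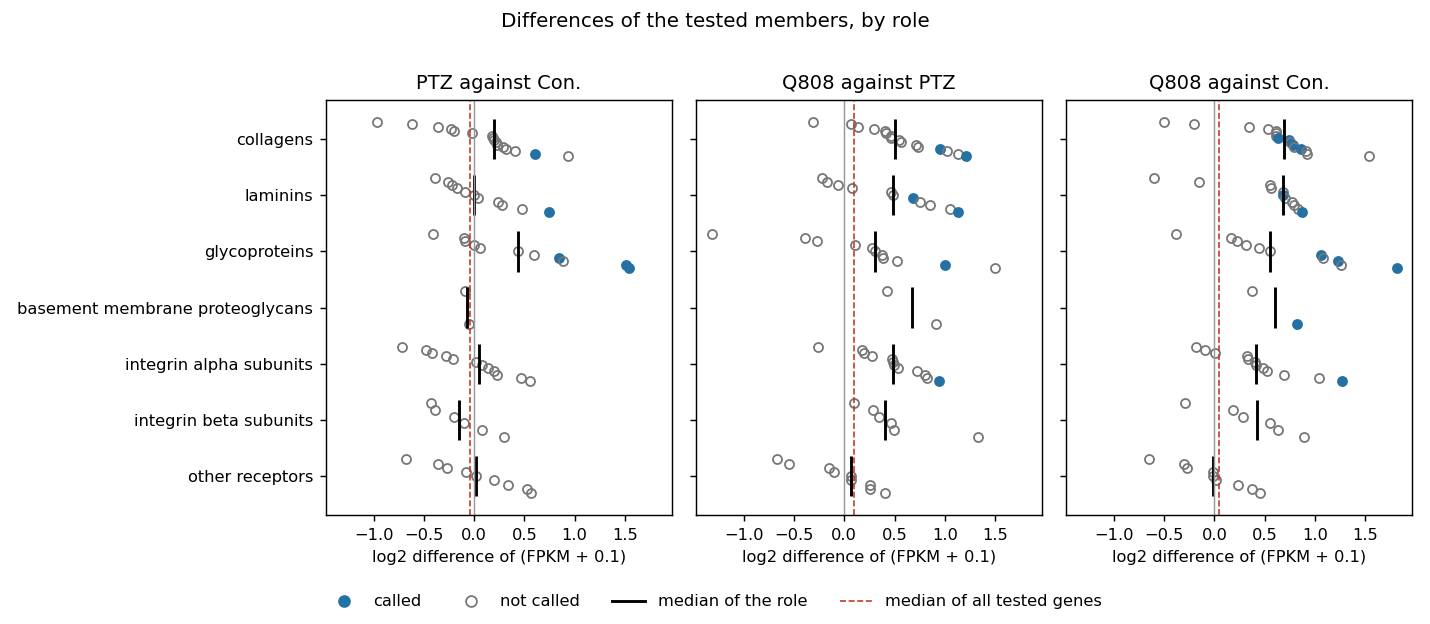
Log2 differences of FPKM + 0.1 of the 67 tested members in the 3 comparisons, by role, with filled points for called members, a black line at each role's median and a dashed line at the median of all tested genes. The collagen and laminin medians lie right of the dashed line in both Q808 panels, at 0.51 and 0.49 against PTZ and 0.69 and 0.69 against Con.

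Several abundant members varied with the striatum markers across the groups, Itgb1 less clearly than the others given here. Sv2c had 2.67, 4.28 and 33.5 FPKM in Con., 3.19, 4.28 and 16.1 in PTZ and 14.4 and 3.60 in Q808, and Sv2b had 77.0, 86.5 and 51.2 in Con., 79.8, 88.7 and 49.8 in PTZ and 23.8 and 82.8 in Q808. In Con.-3, PTZ-3 and Q808-1 Sv2c was above, and Sv2b below, all 5 other libraries. Sv2b had the highest mean FPKM of the other receptors, at 67.5, and none of its 3 differences was called. Itgav (the alpha V subunit of the vitronectin and osteopontin receptors) had the highest mean FPKM of the alpha subunits, with 28.9, 24.6 and 27.7 FPKM in those 3 libraries and 9.20 to 13.9 in the others. Itgb1, which pairs with most alpha subunits of this pathway, led the beta subunits at 22.4, 19.7 and 28.0 FPKM in Con., 26.1, 21.1 and 41.4 in PTZ and 47.4 and 27.4 in Q808. Agrn, which encodes agrin, had 21.5, 21.5 and 23.2 FPKM in Con.-3, PTZ-3 and Q808-1 and 11.8 to 17.1 in the other 5 libraries. Neither Itgb1 nor Agrn was called in any of the 3 comparisons.

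Some members cannot be read with confidence. Col1a2 had 0.0142 to 0.849 FPKM where Col1a1, the other chain of collagen I, had 0.766 to 9.28, and a second gene annotated as Col1a2 was at or near 0. Reads of near-identical copies can be split or dropped, so the level of Col1a2 is uncertain, and so is that of Cd36 beside Cd36l1. The 8 platelet markers summed to 10.98 and 6.51 FPKM in Q808 and at most to 5.03 in the other libraries. All 3 tested ones were higher in Q808, with median log2 differences of 0.84 against PTZ and 0.71 against Con., and Pf4 was called in both, while Ppbp and Gata1 were at 0 in all libraries. Of the platelet glycoproteins among the members, Gp1bb, Gp1ba, Gp5 and Gp6 were at or close to 0 and not tested. Gp9, which was tested, had log2 differences of 0.41 between Q808 and PTZ and -0.27 between Q808 and Con. The integrin subunit Itga2b had 0.72 and 0.01 in the same comparisons. Neither gene was called in them on all libraries.

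Matrix genes outside the pathway were taken from 3 lists. Their calls stand beside 2.53% of all tested genes called in PTZ against Con., 1.92% in Q808 against PTZ and 3.46% in Q808 against Con. Of 30 tested matrix proteins 1 was called in PTZ against Con., 2 in Q808 against PTZ and 2 in Q808 against Con., of 25 tested matrix-processing enzymes and inhibitors 2, 5 and 4, and of 26 integrin signalling and adhesion linkers 2, 0 and 5. Apart from Col18a1, which was lower in PTZ than in Con., all were higher in the first-named group. Timp1, the inhibitor of matrix metalloproteinases that is induced by seizures, had 2.91, 1.15 and 1.47 FPKM in Con., 15.6, 57.9 and 5.70 in PTZ and 3.35 and 5.52 in Q808. All 3 PTZ rats were above all Con. and Q808 rats, and the log2 difference was 3.27 with an SE of 0.79 against Con. (limma, unadjusted p = 0.00438). Its -1.98 with an SE of 0.90 between Q808 and PTZ was not called (limma, unadjusted p = 0.0666). Plat, tissue plasminogen activator, was higher in PTZ than in Con. by a log2 difference of 0.96 with an SE of 0.21, and the actin-linked proteins Flna and Vcl by 0.78 and 0.82 with SEs of 0.25 and 0.27.

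Col18a1, the collagen of endostatin in basement membranes, had 5.13, 6.11 and 7.32 FPKM in Con., 3.01, 3.36 and 5.17 in PTZ and 9.30 and 6.53 in Q808. Its log2 difference was -0.70 with an SE of 0.26 between PTZ and Con. and 1.04 with an SE of 0.33 between Q808 and PTZ, although PTZ-3 lay just inside the Con. range. In Q808 against PTZ, Tgm2, the transglutaminase that cross-links fibronectin, was higher by 0.67 with an SE of 0.23, the gelatinase gene Mmp2 by 1.30 with an SE of 0.45, its activator Mmp14 by 1.12 with an SE of 0.39 and the inhibitor Timp4 by 0.95 with an SE of 0.35. Mmp2 and Mmp14 were highest in Q808-2, at 7.48 and 8.83 FPKM, where the choroid plexus and meningeal lists were also highest. Against Con., Flna was higher in Q808 by 1.29 with an SE of 0.21, Tgm2 by 1.04 with an SE of 0.18, the small proteoglycan Bgn by 0.90 with an SE of 0.16, Timp3 by 0.89 with an SE of 0.20 and the focal adhesion protein Pxn by 0.73 with an SE of 0.19.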

How the data were processed

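Hippocampal RNA of 8 rats was sequenced, 1 library per rat. Reads were trimmed with Trimmomatic and mapped by the authors, who deposited FPKM per gene from Cufflinks for 22601 genes. The aligner, build and annotation version are not given in the sources used here. The authors' read counts and the paper's sequencing yields were not used, and FPKM give no counting error, so precision rests on the spread between rats.

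RefSeq symbols matched 20633 genes and 79 of the 80 members. Each comparison was fitted on its 2 groups with limma 3.58.1 in R 4.3.3 (empirical Bayes with a trend) on log2(FPKM + 0.1). Benjamini-Hochberg adjustment was over the 15593 tested genes. A run on simulated data with independent noise and large planted changes checked the code only and cannot vouch for the calls. Python 3.11.15, numpy 2.4.6, pandas 2.3.3 and matplotlib 3.10.9 made the summaries. Deviations of equally numbered Con. and PTZ libraries from their group means correlated at 0.21, 0.30 and 0.42, although Con.-2 correlated at 0.32 with PTZ-1. The value of 0.42 was between Con.-3 and PTZ-3, both high striatum libraries. The numbers come from the labels, which name no shared litter or day. They were treated as pairs only in the replicate block, an alternative, and the main fit was unpaired.

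Members, roles, marker lists, outside lists and the striatum sets were chosen with earlier results of these data known. Named were the called members, the member of each role with the highest mean FPKM, Fn1 and Spp1, and at most 5 called outside genes per comparison by smallest p. Sv2c, Col4a2, Cd44, Col1a1, Col1a2, Sdc4, Thbs1, Gp9, Itga2b and members given without values were named after their values were seen. The alternatives were pseudocounts of 1 and 0.01, no filter, a mean FPKM of at least 1, 1 fit of all 3 groups, limma with no trend, scaling by quantiles or by median ratios, the replicate block, the low striatum libraries and each library left out. 2 genes of the pathway and the values of 1 called member are not reported here.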

Additional observations from a re-analysis of the deposited data

How the results depend on the processing

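All 22 calls of members kept their direction under every alternative, and 8 were called under each. Of the single members' differences recomputed, 282 stayed on their side of the call, 75 lost it, 1 gained it and 2 reversed. The 3 latter were all Spp1 in Q808 against PTZ, which was called at 1.43 without Q808-2 and was -0.82 without Q808-1 and -0.75 in the low striatum libraries. For PTZ against Con. (5 members and 395 of all genes called), a pseudocount of 1 gave 2 and 219. The replicate block gave 616 genes. The low striatum libraries gave 14 members and 1530 genes, and 140 of these genes had an adjusted p under 0.05. A mean of at least 1 FPKM left 41 members and 12563 genes to test in each comparison. With it 3 members and 271 genes were called in PTZ against Con., 7.32% and 2.16% of those tested, in place of 7.46% and 2.53%. For Q808 against PTZ (6 and 300), the replicate block gave 17 and 1894, the low striatum libraries 20 and 1444, and a mean of at least 1 FPKM 193 genes. For Q808 against Con. (11 and 540), a pseudocount of 1 gave 7 and 340, quantile normalization 7 and 441, and the replicate block 19 and 1076. In the low striatum libraries its median log2 difference over the members was 0.48 in place of 0.55. Leaving out each library in turn gave 2 to 9 members and 249 to 1135 genes in PTZ against Con., 1 to 14 and 132 to 1569 in Q808 against PTZ, and 6 to 15 and 279 to 1799 in Q808 against Con. Calls of members in PTZ against Con. fell most without PTZ-2 and rose most without PTZ-3, and in Q808 against Con. they fell most without Con.-2 and rose most without Con.-3. Q808 shares only 2 numbers with the other groups, so its block leaves the third library of the other group without a partner and was not treated as a pairing. The causes were not tested. In the low striatum libraries and without a Q808 library, Q808 is 1 rat, assumed to vary like the other group. No member had an adjusted p under 0.05 under any alternative, the smallest being 0.101. FPKM do not hold the reads behind a gene, so weakly expressed members, among them Tnn, Itga5 and Lamc3, carry a counting error that is not shown.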
